A study of Drosophila melanogaster with 9 samples.

Results

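The genes described here are 10 genes of the Wingless (Wg) pathway, chosen by name: *wg*, *arm*, *arr*, *Axn*, *Apc*, *fz*, *fz3*, *nkd*, *pan* and *sgg*. The deposited table holds 17481 genes, and 9 of the 10 were followed in it. *wg* itself (FBgn0284084, chromosome 2L, 7307159 to 7316265, plus strand) was not analysed here. All 9 had an average of 0.1 FPKM or more across the 9 libraries, the minimum for testing, which 11493 genes reached. FPKM count fragments relative to transcript length and to the fragments mapped in a library, and levels of different genes are set side by side on this scale. The methods give an amplification of the RNA before library preparation. Whether it affected genes of different transcript length alike was not tested, so the order of levels between genes is approximate.

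Wg is a secreted signalling protein of the Wnt family. Without it, a complex built on Axn and Apc holds Armadillo (Arm, the fly beta-catenin) while the kinase Sgg (GSK3) marks it for destruction. Wg bound to a Frizzled receptor and its co-receptor Arrow (Arr) halts this complex, and Arm then enters the nucleus and joins the DNA-binding factor Pangolin (Pan, the fly TCF). In the absence of Arm, Pan recruits the co-repressor Groucho (Gro), so that *gro* is itself part of the pathway. In the fly midgut, Wg made in and around the epithelium is known as a signal that acts on intestinal stem cells (ISCs).

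The study asked how the co-repressors Gro and CtBP act in ISCs and their enteroblast daughters in the adult *Drosophila melanogaster* midgut. *Notch* depletion served to ask whether *E(spl)-C* genes, targets of Notch signalling, depend on Notch in ISCs. RNA was sequenced from Dl > GFP+ cells sorted by flow cytometry from pooled midguts, in 3 groups of 3 libraries: control, *gro-RNAi* and *Notch-RNAi*. The methods describe control and *gro-RNAi* cells as carrying *Dl-Gal4*, *UAS-GFP* and a temperature-sensitive Gal80. This Gal80 holds the driver off until the flies are warmed. The RNA-seq methods do not describe the *Notch-RNAi* cells. *Dl-Gal4* is active in ISCs, and the control cells expressed GFP alone. The methods describe crosses kept cool and adult control and *gro-RNAi* flies then held warm for several days before dissection. The labels give adults of 5 to 7 days in every group, and the control genotype as wild type. The methods give the age at the start of warming, so flies were older at dissection. How the label ages relate to this is not stated. The sources do not say which *gro* RNAi line was sequenced and describe no separate handling of the *Notch-RNAi* flies. The methods give a separate dissection of pooled midguts for each control and *gro-RNAi* replicate. For *Notch-RNAi* no such statement was found, so the spread between its libraries may be technical. The p-values rest on a spread pooled over all 9 libraries, so this limit reaches every comparison, also that of *gro-RNAi* with control.

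The spacing of low FPKM values puts the depth between 8090000 and 19900000 reads per library, with the 3 *Notch-RNAi* libraries the deepest. Read numbers given below are estimates on that basis for the median length of a gene's annotated transcripts, and their precision covers counting error only. The targeted gene was lower in each RNAi group. *gro* stood at 19.9, 27.8 and 15.3 FPKM in control libraries 1 to 3 and at 3.69, 13.8 and 9.53 FPKM in *gro-RNAi*. The groups did not overlap, but the *gro* difference of -1.36 on the log2 scale (SE 0.44) missed the threshold at an adjusted p of 0.094, and *gro-RNAi* library 2 lay close to the lowest control. Exons of *Exo84* overlap *gro* on the other strand, and *Exo84* had a mean of 11.9 FPKM in both groups. Whether reads were counted by strand is not given in the sources used here, so reads of this stretch cannot be told apart. *Notch* (*N*) stood at 40.9, 36.9 and 28.5 FPKM in control and at 13.9, 16.2 and 9.78 FPKM in *Notch-RNAi*, a log2 difference of -1.42 (SE 0.22, adjusted p 0.00242). *gro* in *Notch-RNAi* was 39.7, 47.3 and 33.1 FPKM, above every control library, at a log2 difference of 0.96 that was not called (adjusted p 0.13), except in a fit of only these 6 libraries (0.0394) and without *gro-RNAi* library 1 (0.0289).

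Markers of midgut cell types differed in level between the groups. The summed FPKM of the 2 ISC markers followed, *Dl* and *spdo*, ran from 4.98 to 7.86 in control, from 27.4 to 74.8 in *gro-RNAi* and from 45.2 to 60.3 in *Notch-RNAi*. Most of this sum was *Dl*, since *spdo* reached at most 1.30, 5.01 and 6.50 FPKM in the same order. The paper reports that *gro* depletion itself raises *Dl* and reads it as *Dl* kept on in presumptive enteroblasts. The sum therefore need not follow ISC number. The 3 enteroblast (EB) markers were *klu*, *Su(H)* and *E(spl)mbeta-HLH*. They summed to 409 to 657 FPKM in control, 565 to 747 in *gro-RNAi* and 106 to 148 in *Notch-RNAi*. The highest single gene value was 639, 715 and 139 FPKM in the same order, so 1 gene held most of the highest sums. In *Notch-RNAi* 1 of the 3 had a log2 difference from control above 0. The paper reports that *Notch* depletion lowers *E(spl)mbeta-HLH* within ISCs, so the sum need not follow EB number. The 8 enteroendocrine (EE) markers summed to 1020 to 2090 FPKM in control, 1880 to 5260 in *gro-RNAi* and 3240 to 3730 in *Notch-RNAi*. Single EE genes went in opposite directions in *Notch-RNAi*, where 3 of the 8 were called higher and 3 lower. *CCHa1* stood at 187 to 269 FPKM in control and 786 to 1266 FPKM in *Notch-RNAi*, whereas *Tk* fell from 55.4 to 138 FPKM to 3.39 to 5.10 FPKM and *NPF* from 130 to 471 FPKM to 2.57 to 4.63 FPKM. Both ISC markers were present in every library labelled as ISCs. The 6 enterocyte (EC) markers summed to 171 to 407, 223 to 796 and 148 to 707 FPKM in the same order. Markers of tissue around the gut were near 0: 10 visceral muscle genes summed to at most 5.31 FPKM, 3 tracheal genes to at most 1.42 FPKM and 4 hemocyte genes to at most 0.759 FPKM. In bulk RNA, fewer cells of a type and less RNA per cell cannot be told apart. The part that these shifts play in any result below was not tested.

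In control cells *arm* stood far above the other members. Its mean was 95.9 ± 23.0 FPKM (SD, n = 3), at the 91.1 percentile of all tested genes by mean control FPKM. *sgg* (11.9 ± 3.56 FPKM) and *Axn* (11.8 ± 2.13 FPKM) followed, both at the 64.5 percentile. *pan* was at 5.37 ± 2.59 FPKM, *Apc* at 3.82 ± 1.69 FPKM and *arr* at 2.38 ± 0.963 FPKM. *fz* (1.18 ± 0.703 FPKM), *fz3* (1.12 ± 0.606 FPKM) and *nkd* (1.10 ± 0.279 FPKM) were the lowest, between the 31.4 and 32.4 percentiles. Neighbours in this order were separated by their library ranges only between *arm* and *sgg* and between *Axn* and *pan*. In both RNAi groups the mean of *fz* stood above that of *arr* and the mean of *nkd* above that of *fz3*, and the other places were as in control. Of these, only *fz* and *arr* in *Notch-RNAi* had separate library ranges.

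**Figure D1:**
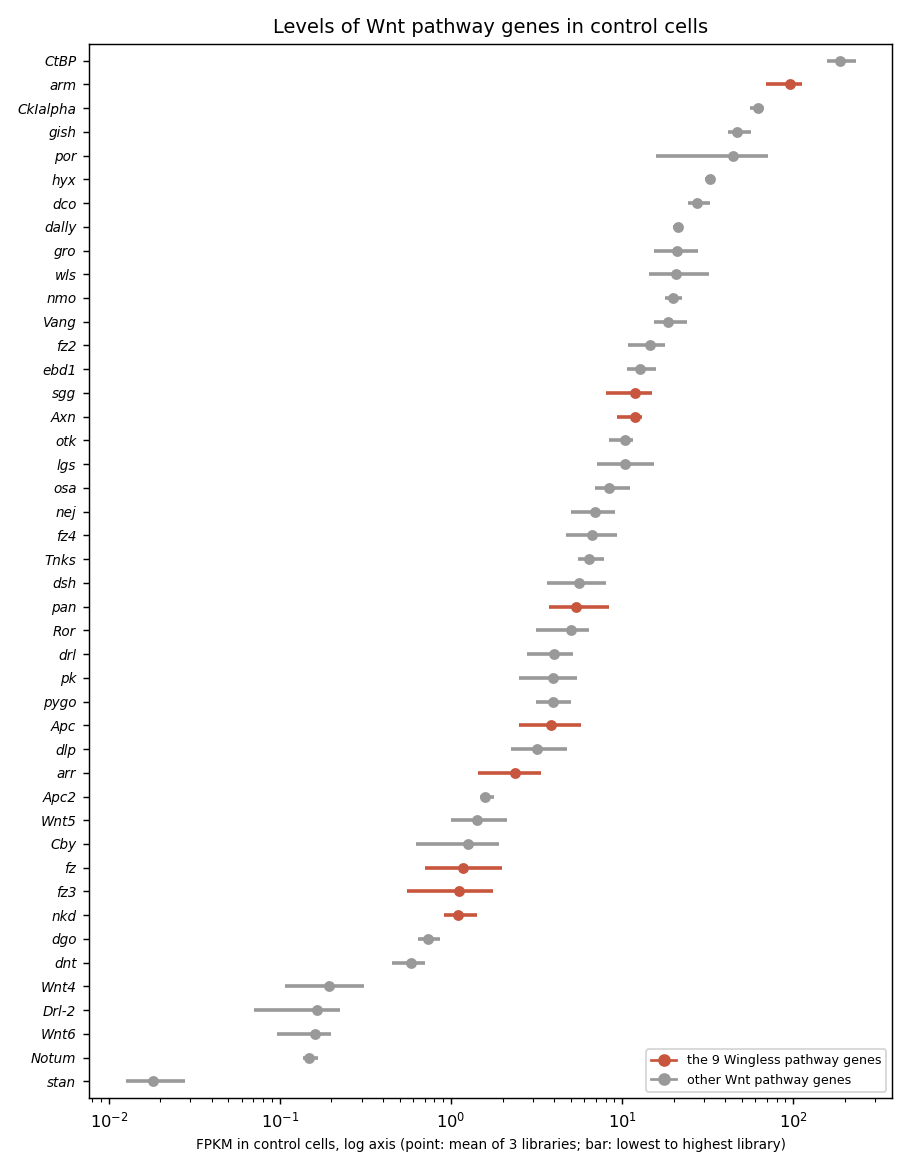
FPKM in control cells on a log axis for the tested genes of the Wnt pathway, with the point at the mean of 3 libraries and the bar from the lowest to the highest library. Among the 9 Wingless pathway genes, drawn in red, *arm* is at 95.9 FPKM and *fz*, *fz3* and *nkd* lie near 1 FPKM.

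Depletion of *gro* was followed by a rise of the Wg receptor gene *fz* and of no other member by the test. *fz* was 3.74-fold higher by mean FPKM (log2 difference 1.90, SE 0.49, adjusted p 0.0474). All 9 members had log2 differences above 0, with a median of 0.52 against 0.27 over all tested genes, of which 69.1% were above 0. Thus 1 of 9 members was called higher and 0 lower, where 6.26% of all tested genes were called higher and 1.23% lower. At an unadjusted p under 0.05 in limma, 2 members were higher and 0 lower. In either direction 2861 of the 11493 tested genes had such a p. For *fz*, *sgg* and *Axn*, all 3 *gro-RNAi* libraries lay above all 3 control libraries, which held for 21.5% of all tested genes. No member lay wholly below control, as 4.90% of all tested genes did. The direction of *arm*, *fz3* and *nkd* turned when every library was shifted to a common median, or centred (log2 differences -0.081, -0.013 and -0.00041), as it did for *fz3* and *nkd* under quantile normalization. No member was called under either scaling. The same scalings moved the share of higher genes among all called genes from 83.6% to 40.7% (centred) and 51.8% (quantile).

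In *Notch-RNAi* cells *fz* and *arm* were called higher than in control. *fz* was 3.62-fold higher by mean FPKM (log2 difference 1.78, SE 0.49, adjusted p 0.0253) and *arm* 1.64-fold higher (log2 difference 0.73, SE 0.21, adjusted p 0.0289). The remaining 7 members were not called, and *arr*, *fz3* and *nkd* had log2 differences below 0. The 2 higher members of 9 stood beside 24.4% of all tested genes called higher, and the 0 lower members beside 4.29% called lower. At an unadjusted p under 0.05 in limma, 2 members were higher and 0 lower. In either direction 4792 of the 11493 tested genes had such a p. All 3 *Notch-RNAi* libraries lay above all 3 control libraries for *fz* and *arm*, as for 39.0% of all tested genes, and no member lay wholly below, as 8.00% did. The members' median log2 difference of 0.22 was below the 0.46 of all tested genes. After every library was shifted to a common median (centred), neither gene was called (*fz* 1.28, adjusted p 0.0916; *arm* 0.23, adjusted p 0.575), and *Axn*, *Apc*, *pan* and *sgg* turned below 0. The share of higher genes among all called genes moved from 85.1% to 42.5% (centred) and 47.9% (quantile).

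Between the RNAi groups themselves no member passed the test. The member furthest from 0 was the co-receptor gene *arr*, 2.44-fold higher by mean FPKM in *gro-RNAi* than in *Notch-RNAi* (log2 difference 1.18, SE 0.37, adjusted p 0.0879). Of 9 members 0 were called in either direction, beside 2.60% of all tested genes called higher in *gro-RNAi* and 4.86% lower. At an unadjusted p under 0.05 in limma, 1 member was higher and 0 lower. In either direction 3009 of the 11493 tested genes had such a p. All 3 *gro-RNAi* libraries lay above all 3 *Notch-RNAi* libraries for *arr*, *fz3* and *nkd* (10.9% of all tested genes) and below them for *arm* (22.3% of all tested genes). The members' median was 0.32 against -0.18 for all tested genes. *arr* passed the test when the libraries were centred (1.32, adjusted p 0.0379) or quantile normalized (1.43, adjusted p 0.0303). The share of higher genes among all called genes moved from 34.9% to 50.8% (centred) and 55.5% (quantile). The comparisons with control share the same 3 control libraries and are therefore not independent of each other.

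**Figure D2:**
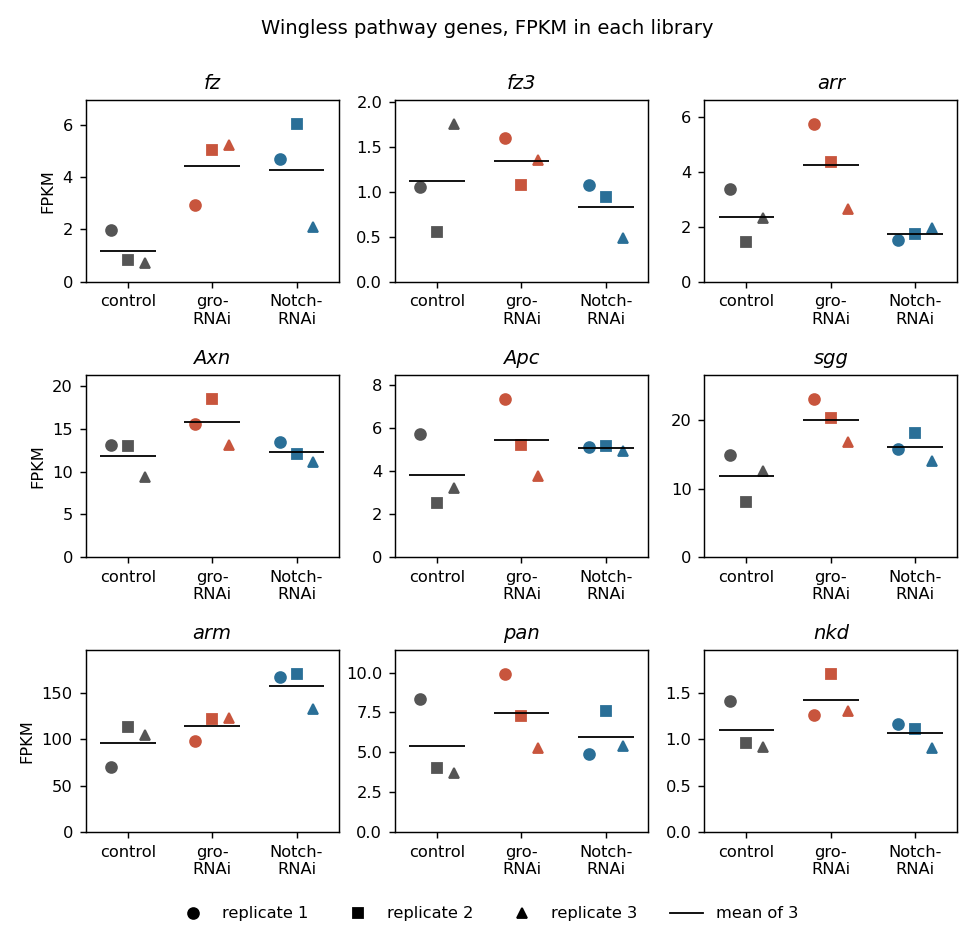
FPKM of the 9 Wingless pathway genes in each library (points, shaped by replicate) with the mean of 3 libraries (line), by group. For *fz* the control libraries reach 1.99 FPKM and every library of both RNAi groups lies above that. For *arm* the lowest *Notch-RNAi* library, at 133 FPKM, lies above the highest control library, at 113 FPKM.

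Of the Wnt ligand genes other than *wg*, none was abundant. *Wnt5*, which is best known for guiding axons through the receptor Derailed (Drl), was the highest. It stood at 2.11, 1.00 and 1.14 FPKM in control, 1.89, 1.49 and 0.916 FPKM in *gro-RNAi*, and 1.01, 1.16 and 1.76 FPKM in *Notch-RNAi*. The 3 groups overlapped, with log2 differences from control of 0.03 and -0.07 (adjusted p 0.983 and 0.909).

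*Wnt6* and *Wnt4*, whose genes lie near *wg*, were close to the detection limit. *Wnt6* stood at 0.0962, 0.199 and 0.186 FPKM in control (3, 7 and 6 reads), at 0.102, 0 and 0.358 FPKM in *gro-RNAi* (4, 0 and 10 reads) and at 0.608, 0.617 and 0.417 FPKM in *Notch-RNAi* (30, 28 and 22 reads). Every *Notch-RNAi* library was above every other library for *Wnt6*. The log2 difference from control was 1.32 (SE 0.56) and was not called (adjusted p 0.109), except with a pseudocount of 1 FPKM (0.0489) or only the 6 libraries compared (0.028). *Wnt4* was at 0.107 to 0.310 FPKM in control, 0.117 to 0.277 FPKM in *gro-RNAi* and 0.205 to 0.403 FPKM in *Notch-RNAi*, with all groups overlapping. *Wnt2* (at most 5 reads in a library), *Wnt10* (1 read in 1 control library) and *wntD* (0 reads in every library) fell under the filter. For *wntD*, 0 reads allow up to 3 in each library. Of the ligands and the genes for their secretion, 5 of 9 were tested and 0 were called in either comparison with control. At an unadjusted p under 0.05 in limma, 1 was higher in each. In either direction 2861 (*gro-RNAi*) and 4792 (*Notch-RNAi*) of the 11493 tested genes had such a p. Over all tested genes, 6.26% were called higher in *gro-RNAi* and 24.4% in *Notch-RNAi*.

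*fz* (FBgn0001085, chromosome 3L, 14274343 to 14368639, plus strand, release 6 of the genome) encodes Frizzled, a seven-pass receptor for Wg that also works in planar cell polarity. It stood at 1.99, 0.850 and 0.702 FPKM in control (85, 41 and 31 reads), at 2.94, 5.04 and 5.24 FPKM in *gro-RNAi* (158, 148 and 201 reads) and at 4.68, 6.05 and 2.09 FPKM in *Notch-RNAi* (316, 376 and 151 reads). Every RNAi library was above every control library, with control library 1 and *Notch-RNAi* library 3 only just apart. The log2 difference from control was 1.90 (95% interval 0.80 to 3.00) in *gro-RNAi* and 1.78 (0.68 to 2.88) in *Notch-RNAi*, or 1.64 and 1.32 above the median of all tested genes. An exact two-sided permutation test gave p = 0.1 in both, the smallest that 3 against 3 libraries can give. The RNAi groups differed from each other by 0.13 (95% interval -0.97 to 1.23, adjusted p 0.899).

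The calls on *fz* lay near the threshold. In *gro-RNAi* the call held in 2 of 9 other settings, with adjusted p from 0.0387 to 0.118. Leaving out a library, it held only without control library 1 (0.032) or *Notch-RNAi* library 3 (0.043), and was lost without any of the other 7 (0.0607 to 0.143). In *Notch-RNAi* the call held in 6 of 9 other settings (adjusted p from 0.0213 to 0.0949) and was lost without control library 2 or 3 or *Notch-RNAi* library 1 or 2 (0.0752, 0.0833, 0.0943 and 0.107). The direction was upward in every one of these fits.

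The remaining Frizzled genes did not pass the test. *fz2*, the high-affinity Wg receptor gene and the most abundant of the family here, had means of 14.6 ± 3.61 FPKM in control, 23.0 ± 2.57 FPKM in *gro-RNAi* and 18.1 ± 2.77 FPKM in *Notch-RNAi*. All *gro-RNAi* libraries were above all control libraries for *fz2*, at a log2 difference of 0.67 (SE 0.22, adjusted p 0.103). *fz4* had means of 6.65, 9.95 and 7.89 FPKM, with control and RNAi libraries overlapping. *fz3* (FBgn0027343, chromosome X, 769945 to 784222, plus strand) encodes a receptor that acts weakly or against Wg and is induced by it in imaginal discs. It stood at 1.05, 0.550 and 1.76 FPKM in control, at 1.60, 1.07 and 1.35 FPKM in *gro-RNAi* and at 1.07, 0.939 and 0.486 FPKM in *Notch-RNAi*. These values rest on 15 to 50 reads per library, and the control libraries spanned all but the lowest *Notch-RNAi* library. The log2 differences of *fz3* from control were 0.35 (95% interval -0.66 to 1.36) and -0.32 (-1.33 to 0.69).

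*arr* (FBgn0000119, chromosome 2R, 13453640 to 13483229, minus strand) encodes the LRP5/6-type co-receptor that Wg needs in order to signal through Arm. It stood at 3.37, 1.44 and 2.32 FPKM in control, at 5.77, 4.36 and 2.67 FPKM in *gro-RNAi* and at 1.52, 1.75 and 1.96 FPKM in *Notch-RNAi*. The *Notch-RNAi* libraries lay close together within the control range, and the *gro-RNAi* libraries lay above them all. The log2 difference from control was 0.83 (95% interval -0.02 to 1.67, adjusted p 0.208) in *gro-RNAi* and -0.35 (-1.20 to 0.49, adjusted p 0.506) in *Notch-RNAi*. The difference between the RNAi groups, 1.18 (0.34 to 2.03), had an exact two-sided permutation p of 0.1, the smallest possible. Over the other settings it ran from 0.90 to 1.43 with adjusted p from 0.0303 to 0.121, and with a library left out from 0.94 to 1.48 with adjusted p from 0.0722 to 0.262.

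**Figure D3:**
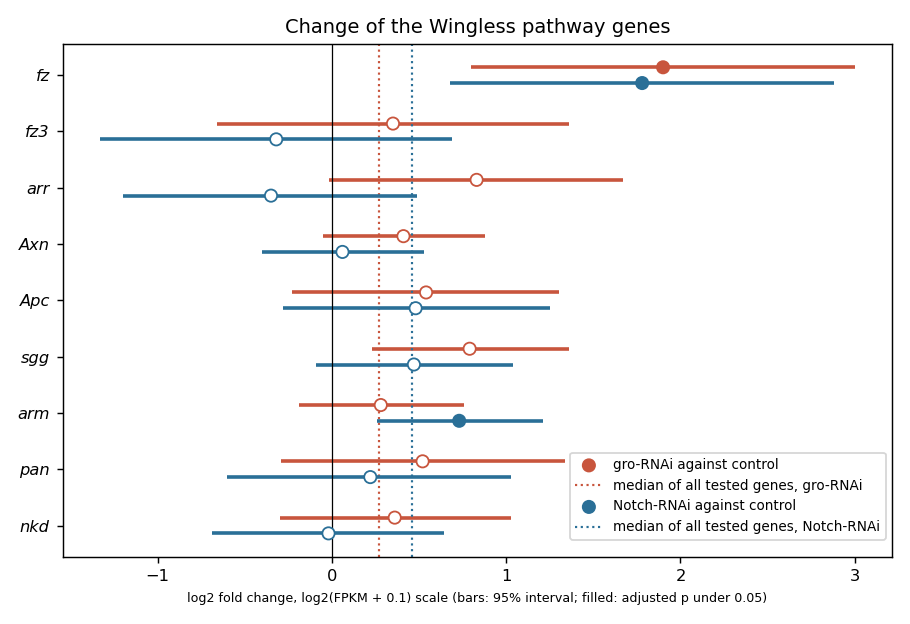
Log2 difference from control of the 9 Wingless pathway genes on the log2(FPKM + 0.1) scale, for *gro-RNAi* (red) and *Notch-RNAi* (blue), with 95% intervals and filled points at an adjusted p under 0.05. Dotted lines mark the median of all tested genes, 0.27 and 0.46. *fz* stands apart at 1.90 and 1.78, and the other intervals lie on or near the medians.

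The genes of the destruction complex were measured at moderate levels. *sgg* (FBgn0003371, chromosome X, 2633952 to 2679553, plus strand), the GSK3 kinase, stood at 15.0, 8.00 and 12.6 FPKM in control, at 23.2, 20.3 and 16.8 FPKM in *gro-RNAi* and at 15.9, 18.1 and 14.1 FPKM in *Notch-RNAi*. The *gro-RNAi* libraries were all above the control libraries, and the *Notch-RNAi* libraries overlapped with both. The log2 difference was 0.79 (95% interval 0.23 to 1.36, adjusted p 0.0898) in *gro-RNAi* and 0.47 (-0.09 to 1.04, adjusted p 0.186) in *Notch-RNAi*. It did not pass the test in *gro-RNAi* under any other setting (adjusted p from 0.0709 to 0.248) or with any library left out (0.0533 to 0.194). An exon of the long non-coding RNA gene *lncRNA:CR45197* overlaps *sgg* on the same strand.

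*Axn* (FBgn0026597, chromosome 3R, 30022842 to 30035311, plus strand) encodes the scaffold on which the complex assembles. It stood at 13.2, 13.0 and 9.38 FPKM in control, at 15.6, 18.6 and 13.2 FPKM in *gro-RNAi* and at 13.5, 12.1 and 11.2 FPKM in *Notch-RNAi*. The lowest *gro-RNAi* library and the highest control library of *Axn* were nearly equal, so that the groups only just did not overlap. Its log2 difference from control was 0.41 (95% interval -0.05 to 0.88, adjusted p 0.25) in *gro-RNAi* and 0.06 (-0.40 to 0.53, adjusted p 0.852) in *Notch-RNAi*. Exons of *ZIPIC* overlap *Axn* on the other strand.

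*Apc* (FBgn0015589, chromosome 3R, 28832301 to 28844748, minus strand) encodes the second scaffold, a tumour suppressor of the human colon. It stood at 5.72, 2.51 and 3.21 FPKM in control, at 7.36, 5.20 and 3.78 FPKM in *gro-RNAi* and at 5.12, 5.14 and 4.94 FPKM in *Notch-RNAi*. Control library 1 lay above all *Notch-RNAi* libraries and above 2 of the 3 *gro-RNAi* libraries. The log2 differences of *Apc* from control were 0.54 (95% interval -0.23 to 1.30) and 0.48 (-0.28 to 1.25), and neither was called. Its paralog *Apc2*, which shares the work of *Apc* in many fly tissues, was less abundant in control (1.59 ± 0.176 FPKM). *Apc2* stood at 2.65 ± 0.509 FPKM in *gro-RNAi* and rose to 3.72 ± 0.316 FPKM in *Notch-RNAi* (log2 difference 1.18, adjusted p 0.0084).

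*arm* (FBgn0000117, chromosome X, 1891401 to 1900646, minus strand) encodes the transcriptional effector of the pathway, which also links cadherins at adherens junctions. It stood at 69.8, 113 and 105 FPKM in control, at 98.7, 122 and 124 FPKM in *gro-RNAi* and at 168, 171 and 133 FPKM in *Notch-RNAi*. The *Notch-RNAi* libraries were above all others, and the *gro-RNAi* libraries overlapped with control. The log2 difference from control was 0.28 (95% interval -0.19 to 0.76, adjusted p 0.445) in *gro-RNAi* and 0.73 (0.26 to 1.21) in *Notch-RNAi*, the latter 0.27 above the median of all tested genes. Between the RNAi groups it was -0.45 (-0.92 to 0.02, adjusted p 0.209). The *Notch-RNAi* call held in 5 of 9 other settings (adjusted p from 0.027 to 0.575) and was lost without control library 1 (0.0579) or *Notch-RNAi* library 1 or 2 (0.103 and 0.102). *arm* shares exon sequence with *mRpL16* on the other strand. *mRpL16* was also higher in *Notch-RNAi* (60.9 against 33.3 FPKM by mean, log2 difference 0.91, adjusted p 0.018), a call lost with centring (0.299) and without *Notch-RNAi* library 1 (0.063) or 3 (0.0535). Whether the authors counted by strand is not given in the sources used here, so reads of the shared stretch cannot be told apart.

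*pan* (FBgn0085432, chromosome 4, 69326 to 114270, plus strand) encodes the DNA-binding partner of both Arm and Gro. It stood at 8.35, 4.04 and 3.72 FPKM in control, at 9.93, 7.25 and 5.26 FPKM in *gro-RNAi* and at 4.90, 7.56 and 5.36 FPKM in *Notch-RNAi*. Control library 1 was above 2 of the 3 *gro-RNAi* libraries and above every *Notch-RNAi* library. The log2 differences of *pan* were 0.52 (95% interval -0.29 to 1.34, adjusted p 0.414) and 0.22 (-0.60 to 1.03, adjusted p 0.685). Annotated transposon insertions lie over exons of *pan* on both strands.

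*nkd* (FBgn0002945, chromosome 3L, 19003741 to 19045449, minus strand) encodes Naked cuticle, a feedback inhibitor that binds Dishevelled and that Wg itself induces in the embryo and in imaginal discs. It stood at 1.42, 0.955 and 0.915 FPKM in control, at 1.26, 1.71 and 1.31 FPKM in *gro-RNAi* and at 1.17, 1.12 and 0.905 FPKM in *Notch-RNAi*, on 50 to 98 reads per library. The RNAi groups did not overlap with each other, and both overlapped with control. The log2 differences of *nkd* from control were 0.36 (95% interval -0.30 to 1.03) and -0.02 (-0.69 to 0.64). Together with *fz3* and *Notum*, which encodes a secreted enzyme that inactivates Wnt proteins, *nkd* is used in fly tissues as a read-out of Wg activity. Of these 3 genes 0 were called in any comparison (also 0 at an unadjusted p under 0.05 in limma). The shares called higher over all tested genes were 6.26% (*gro-RNAi*), 24.4% (*Notch-RNAi*) and 2.60% (*gro-RNAi* against *Notch-RNAi*). In the same order, 2861, 4792 and 3009 of the 11493 tested genes had an unadjusted p under 0.05 in limma, in either direction. *Notum*, named because it completes this list of 3, stood at 0.141, 0.167 and 0.137 FPKM in control, at 0.469, 0.549 and 0.184 FPKM in *gro-RNAi* and at 0.134, 0.307 and 0.111 FPKM in *Notch-RNAi*. The *gro-RNAi* libraries were above control for *Notum*, on 7 to 25 reads, at a log2 difference of 0.93 (SE 0.47, adjusted p 0.255).

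The spread within a group was shared by several members. Among the control libraries, library 1 was the highest for 7 of 9 members, where it was the highest for 48.6% of all tested genes. Among the *Notch-RNAi* libraries, library 3 was the lowest for 7 of 9 members, against 47.1% of all tested genes. *arm* and *fz3* were the members for which control library 1 was not the highest.

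A wider list of 49 Wnt pathway genes, chosen by role, holds 39 genes beyond the members, of which 35 were tested. In *gro-RNAi*, 2 of these 35 were called higher and 0 lower, beside 6.26% and 1.23% of all tested genes. Their median log2 difference was 0.32, against 0.27 for all tested genes. At an unadjusted p under 0.05 in limma, 13 were higher and 2, *dgo* and the targeted *gro*, lower. Counting both directions, 2861 of the 11493 tested genes had such an unadjusted p. In *Notch-RNAi*, 9 were called higher and 2 lower, beside 24.4% and 4.29% of all tested genes. Their median was 0.39, against 0.46 for all tested genes. Between the RNAi groups 1 was called higher in *gro-RNAi* and 3 lower, beside 2.60% and 4.86% of all tested genes. The 3 lower include *gro* itself, the gene targeted in *gro-RNAi* (log2 difference -2.32, adjusted p 0.0187). That call on *gro* was lost without *gro-RNAi* library 3 or *Notch-RNAi* library 1 or 2 (0.0544 to 0.102). The called counts in both comparisons with control lay near the shares over all tested genes.

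**Figure D4:**
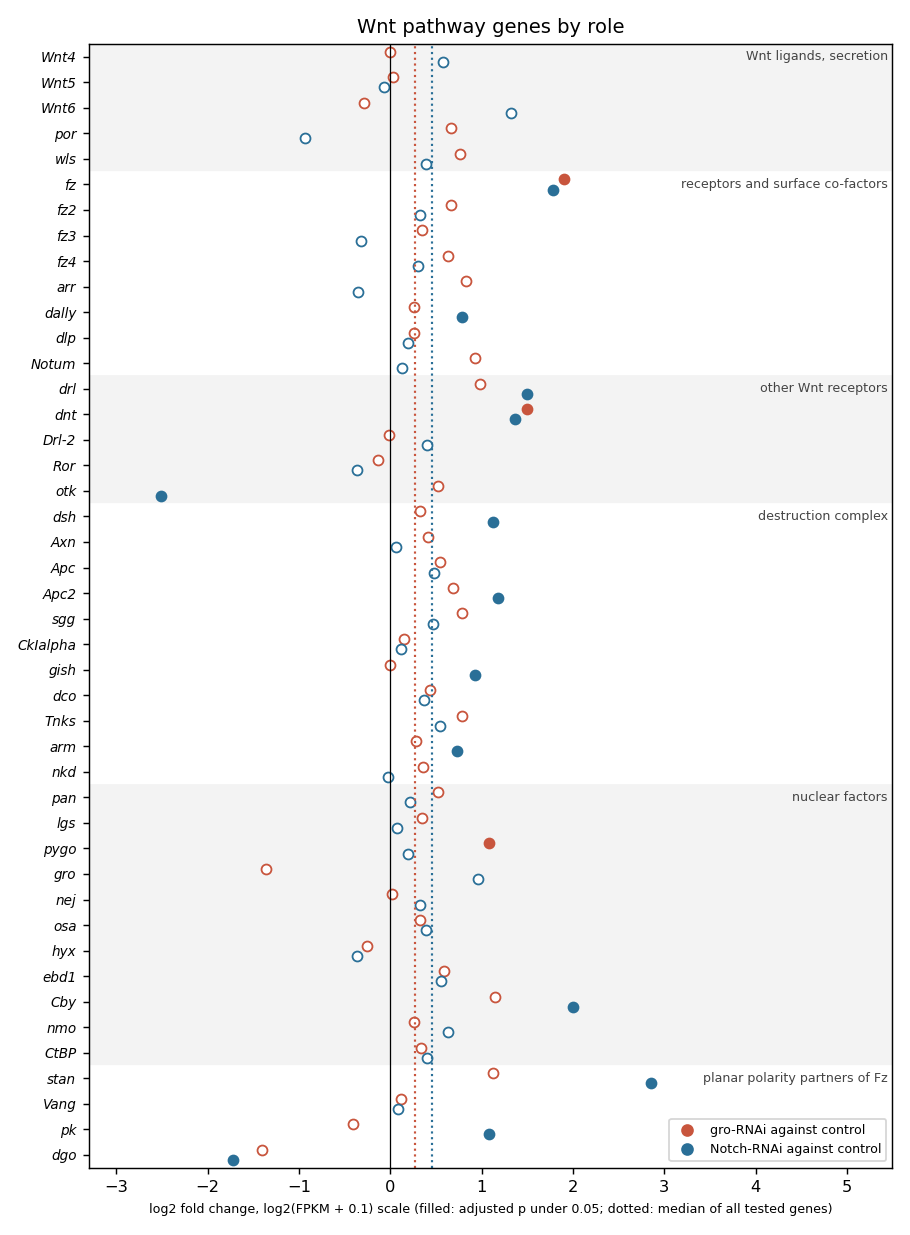
Log2 difference from control on the log2(FPKM + 0.1) scale for the tested Wnt pathway genes, grouped by role, in *gro-RNAi* (red) and *Notch-RNAi* (blue), with filled points at an adjusted p under 0.05 and dotted lines at the medians of all tested genes. No ligand or feedback gene is called, and *otk* and *dgo* are the only ones called lower.

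The clearest single difference lay in *otk*, which encodes Off-track, a PTK7-like membrane protein that binds Wnt ligands and Frizzled receptors. It stood at 11.5, 8.37 and 11.5 FPKM in control, at 13.1, 17.0 and 14.8 FPKM in *gro-RNAi* and at 1.77, 1.86 and 1.58 FPKM in *Notch-RNAi*. *Notch-RNAi* libraries were far below all others, and *gro-RNAi* libraries were above control. The log2 difference was -2.51 in *Notch-RNAi* (SE 0.21, adjusted p 0.000213) and 0.52 in *gro-RNAi* (SE 0.21, adjusted p 0.163). The RNAi groups differed by 3.03 (adjusted p 0.000102), and both calls on *otk* held in all 9 other settings and with each of the 9 libraries left out. The summed EB markers, 106 to 148 FPKM in *Notch-RNAi* against 409 to 657 FPKM in control, were low in the same libraries. As given above, 1 gene held most of the highest of these sums. The EE genes *Tk* (3.39 to 5.10 FPKM) and *NPF* (2.57 to 4.63 FPKM) were low there too. Of the 8 EE markers 3 were called lower in *Notch-RNAi* and 3 higher. Any link of *otk* to the number of EBs or EEs was not tested.

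Of 5 tested genes of other Wnt receptors, 2 were called higher in *Notch-RNAi* and 1, *otk*, lower. Over all tested genes these shares were 24.4% and 4.29%. The higher ones were the Ryk-type Wnt5 receptor genes *drl* and *dnt*. *Drl-2* and *Ror* overlapped with control in *Notch-RNAi* and were not called (adjusted p 0.649 and 0.486). *drl* stood at 5.16, 2.79 and 4.03 FPKM in control and at 12.3, 12.8 and 8.80 FPKM in *Notch-RNAi* (log2 difference 1.50, SE 0.37, adjusted p 0.0166). Its *gro-RNAi* libraries, at 13.4, 6.54 and 5.33 FPKM, were all above control without a call (adjusted p 0.138). *dnt* stood at 0.452, 0.585 and 0.706 FPKM in control, at 3.10, 1.21 and 1.55 FPKM in *gro-RNAi* and at 1.47, 1.91 and 1.56 FPKM in *Notch-RNAi*. *dnt* was called higher in both (log2 differences 1.50 and 1.37, adjusted p 0.0442 and 0.025). The *gro-RNAi* call on *dnt* was lost with any 1 of the 9 libraries left out (adjusted p from 0.0581 to 0.0974). The *Notch-RNAi* call on *dnt* was lost without control library 1 or 2 or any *Notch-RNAi* library (0.0515 to 0.0894), and that on *drl* without control library 2 or *Notch-RNAi* library 1 or 2 (0.0547 to 0.0718).

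Of the 4 tested genes of Frizzled's planar polarity branch, 2 were called higher and 1 lower in *Notch-RNAi*. Over all tested genes these shares were 24.4% and 4.29%. *Vang* was not called, with overlapping libraries and means of 18.55 FPKM in control and 19.31 FPKM in *Notch-RNAi* (adjusted p 0.82). *stan*, the cadherin Flamingo, was backed by 2, 2 and 4 control reads, by 44, 16 and 14 *gro-RNAi* reads and by 247, 221 and 97 *Notch-RNAi* reads. With so few control reads its log2 difference of 2.85 in *Notch-RNAi* (adjusted p 0.00323) depends on the pseudocount and ran from 0.81 to 4.78 with 1 and 0.01 FPKM. *pk* stood at 5.43, 3.97 and 2.51 FPKM in control, at 3.63, 1.99 and 3.13 FPKM in *gro-RNAi* and at 8.03, 8.64 and 7.72 FPKM in *Notch-RNAi*. It was called higher in *Notch-RNAi* than in control (1.08, adjusted p 0.0343) and lower in *gro-RNAi* than in *Notch-RNAi* (-1.49, adjusted p 0.0297). The former call on *pk* was lost without control library 2 or 3, *gro-RNAi* library 3 or any *Notch-RNAi* library (0.0503 to 0.112), and the latter without *gro-RNAi* library 2 or 3 or any *Notch-RNAi* library (0.06 to 0.123). *dgo*, the ankyrin-repeat protein Diego, stood at 0.863, 0.689 and 0.640 FPKM in control, at 0.206, 0.335 and 0.128 FPKM in *gro-RNAi* and at 0.181, 0.178 and 0.102 FPKM in *Notch-RNAi*. All RNAi libraries of *dgo* were below control. It was called lower in *Notch-RNAi* (-1.72, SE 0.39, adjusted p 0.0124) and not in *gro-RNAi* (-1.40, adjusted p 0.0629). The latter passed the test in 4 of the other settings, among them both scalings (0.031 centred and 0.0453 quantile), and the RNAi groups differed by 0.32 (adjusted p 0.651).

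Of 11 tested genes of the destruction complex and its regulators, 4 were called higher in *Notch-RNAi*, beside 24.4% of all tested genes. In *gro-RNAi* 0 were called higher, beside 6.26% of all tested genes. At an unadjusted p under 0.05 in limma 4 were higher. In either direction 2861 of the 11493 tested genes had such a p. Besides *arm* and *Apc2*, those called in *Notch-RNAi* were *dsh* and *gish*. *dsh*, Dishevelled, relays the signal from Frizzled to the complex. It stood at 8.10, 3.63 and 5.02 FPKM in control and at 12.6, 11.3 and 10.9 FPKM in *Notch-RNAi* (log2 difference 1.12, adjusted p 0.0214). That call was lost without control library 2 or 3 or *Notch-RNAi* library 1 or 2 (0.0575 to 0.0825). *gish* encodes a casein kinase I and stood at 56.9, 42.9 and 41.8 FPKM in control and at 89.7, 101 and 78.1 FPKM in *Notch-RNAi* (0.93, adjusted p 0.00984). *gish* was also lower in *gro-RNAi* than in *Notch-RNAi* (-0.93, adjusted p 0.0286), which was lost without library 2 or 3 of *gro-RNAi* or library 1 or 2 of *Notch-RNAi* (0.0765 to 0.121). Of the 8 receptors and surface co-factors, *dally*, a glypican that binds Wg at the cell surface, was called higher in *Notch-RNAi* beside *fz*. *dally* stood at 19.8, 22.1 and 22.1 FPKM in control and at 35.7, 38.1 and 36.0 FPKM in *Notch-RNAi* (0.78, adjusted p 0.0115). After the same centring, *dally* (0.27), *dsh* (0.62), *Apc2* (0.68), *gish* (0.43), *pk* (0.58) and *dnt* (0.87) were no longer called in *Notch-RNAi*, at adjusted p from 0.0798 to 0.441.

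Of 12 nuclear factors tested, 1 was called higher in *gro-RNAi* and 2 in *Notch-RNAi*, beside 6.26% and 24.4% of all tested genes. The gene called in *gro-RNAi* was *pygo*, whose PHD-finger protein is recruited by Arm through Legless to activate target genes. *pygo* stood at 5.00, 3.15 and 3.67 FPKM in control, at 6.99, 9.01 and 8.97 FPKM in *gro-RNAi* and at 3.75, 4.10 and 5.66 FPKM in *Notch-RNAi*. All *gro-RNAi* libraries were above every other library, at a log2 difference from control of 1.08 (SE 0.26, adjusted p 0.0388). The call on *pygo* was lost in 5 of 9 other settings (adjusted p up to 0.208) and without control library 2 or 3, *gro-RNAi* library 2 or 3 or *Notch-RNAi* library 1 or 2 (up to 0.116). *Cby*, which encodes Chibby, an antagonist of Arm, was called in *Notch-RNAi* beside *arm*. It was backed by 5, 3 and 8 control reads and by 40, 36 and 20 *Notch-RNAi* reads (log2 difference 2.00, SE 0.43, adjusted p 0.00985). The call was lost without *Notch-RNAi* library 1 (0.0503) or 2 (0.0514). *Cby* and *Apc2* each share exon sequence with a gene on the other strand.

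**Figure D5:**
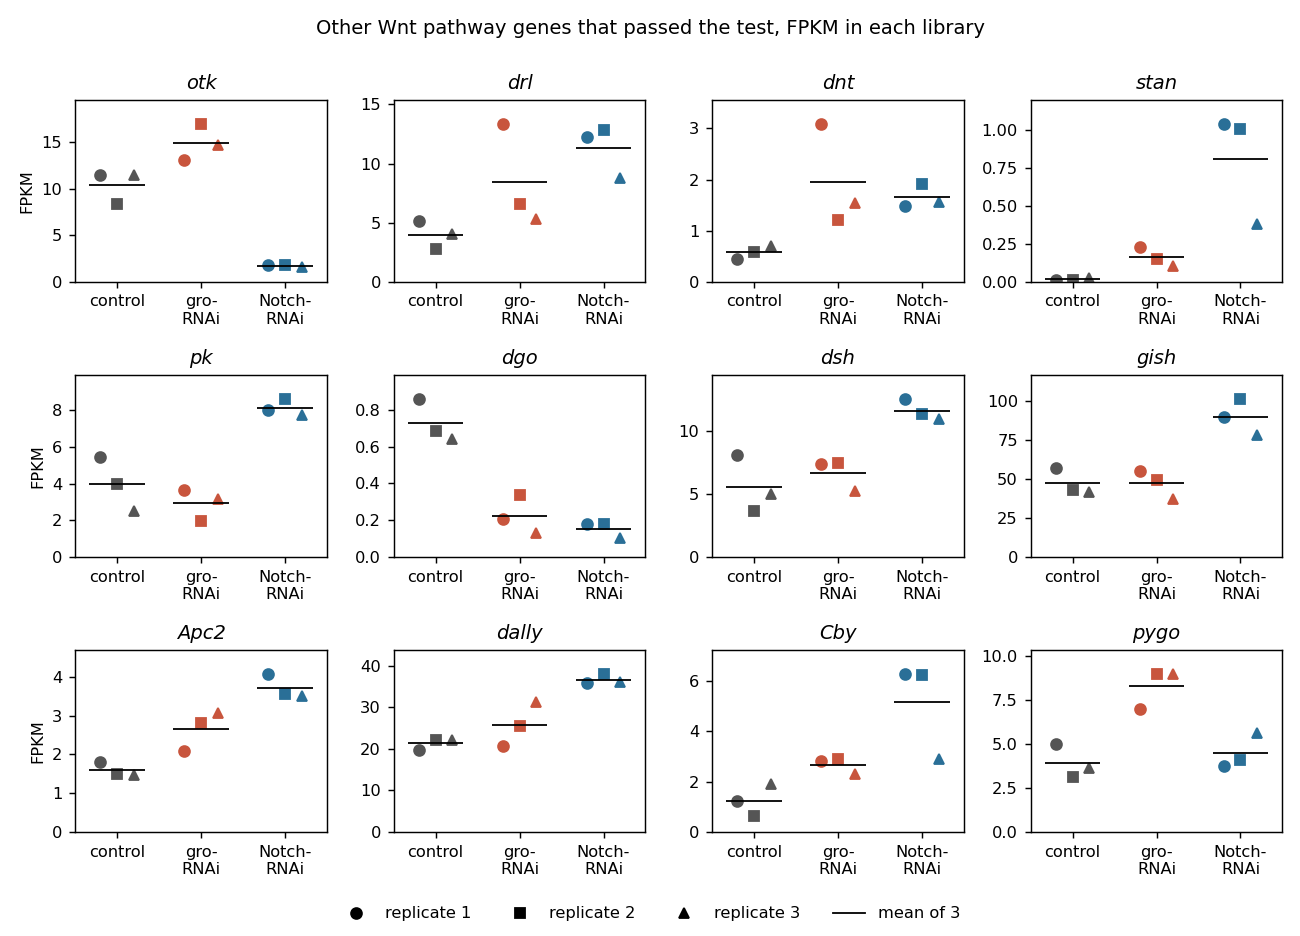
FPKM in each library (points, shaped by replicate) and the mean of 3 libraries (line) for the 12 Wnt pathway genes beyond the members that passed the test in a comparison with control. *otk* falls to at most 1.86 FPKM in *Notch-RNAi* from at least 8.37 FPKM elsewhere, and *pygo* is above 6 FPKM only in *gro-RNAi*.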

How the data were processed

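RNA-seq was available for 9 libraries of sorted Dl > GFP+ midgut cells, 3 per group, grouped by their labels. The authors aligned reads with STAR 2.5.2b to BDGP6 (the submitters' processing notes) and deposited FPKM for 17481 genes. The FPKM tool, its annotation and any scaling between libraries are not given in the sources used here. No pair of libraries held identical values. Identifiers were matched to Ensembl release 115 (release 6 of the genome), and 305 genes had no symbol. *wg*, *slmb*, *esg*, *wupA* and *btl* were not analysed here.

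The 11493 genes averaging 0.1 FPKM or more were compared as log2(FPKM + 0.1) with limma 3.58.1 in R 4.3.3 (lmFit, eBayes with trend), in 1 fit over 9 libraries that held no replicate block. Benjamini-Hochberg adjustment ran over all tested genes, with calls under 0.05. Fold changes on this scale understate the change of low genes. The script was tested on simulated data. Exact permutation tests were two-sided. FPKM carry no read totals. Reads were therefore estimated from the steps of low values on single-transcript genes of at least 2000 nt, taking a transcript's length less 200 nt, and 92.6% to 95.2% of low values lay within 0.15 of a whole read. Other steps used Python 3.11.15 with scipy 1.17.1, numpy 2.4.6, pandas 2.3.3 and matplotlib 3.10.9.

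The members and lists were chosen with earlier results of these data known. All members, Wnt ligands and Frizzled genes are named, and other listed genes where called in a comparison with control. *Notum*, *Vang*, *Drl-2* and *Ror* are also named, to complete short lists. The figures show every tested gene of the lists. The alternatives were pseudocounts of 1 and 0.01 FPKM, a filter at 1 FPKM or none, a shift of every library to a common median, quantile normalization, a fit of only the 6 libraries compared, a prior variance without trend, a replicate block, and each library left out.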

Additional observations from a re-analysis of the deposited data

How the results depend on the processing

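For genes beyond the members, the alternatives were added after seeing the data and cover the log2 differences given above. Over these and the members, 443 values kept their direction and their side of the threshold under the other settings, 41 lost a call, 9 gained one and 14 changed sign. With each library left out in turn these were 434, 63, 1 and 15. The gained calls were of *arr* between the RNAi groups, *dgo* in *gro-RNAi*, and *Wnt6* and *gro* in *Notch-RNAi*. Each change of sign was of a value that was not called. Centring the libraries on the same median or quantile normalization, which remove the medians of 0.267, 0.46 and -0.181 that all tested genes show, turned these log2 differences: in *gro-RNAi* against control *arm* (-0.081 centred), *fz3* (-0.013 and -0.0064) and *nkd* (-0.00041 and -0.027), and in *Notch-RNAi* against control *Axn* (-0.44 and -0.38), *Apc* (-0.019 and -0.045), *pan* (-0.29 and -0.29) and *sgg* (-0.032 centred). They also turned *Wnt5* in *gro-RNAi* against control (-0.34 and -0.36). With a library left out, *fz3* ran from -0.037 to 0.72 and *Wnt5* from -0.19 to 0.34 in *gro-RNAi* against control. In *Notch-RNAi* against control *Axn* ran from -0.097 to 0.14, *fz3* from -0.71 to 0.049, *nkd* from -0.13 to 0.16 and *Wnt5* from -0.29 to 0.23. Between the RNAi groups *Apc* ran from -0.19 to 0.28 and *fz* from -0.31 to 0.44. The genes called higher in *gro-RNAi* against control, 720, became 212 (centred), 233 (quantile) and 160 (only the 6 libraries compared), and those called lower, 141, became 309, 217 and 34. In the fit of only these 6 libraries, which leaves out *Notch-RNAi*, *fz*, *pygo* and *dnt* lost their *gro-RNAi* calls (adjusted p 0.108, 0.0961 and 0.131). In *Notch-RNAi* against control, 2806 higher became 958 and 1067, and 493 lower became 1294 and 1161 (centred and quantile). Between the RNAi groups 299 higher became 512 under quantile normalization. Leaving out a library gave 260 to 744 higher and 53 to 141 lower in *gro-RNAi* against control, 1333 to 3153 and 228 to 565 in *Notch-RNAi* against control, and 70 to 325 and 67 to 858 between the RNAi groups. The libraries whose absence moved such a count by over 1.5 times were control libraries 2 and 3, all 3 *gro-RNAi* libraries and *Notch-RNAi* libraries 1 and 2. In *gro-RNAi* against control, for example, 284 genes were higher without control library 3 and 260 without *gro-RNAi* library 2. In *Notch-RNAi* against control 1333 were higher without *Notch-RNAi* library 1 and 1510 without library 2. Between the RNAi groups 858 were lower without *gro-RNAi* library 1 and 67 without *Notch-RNAi* library 1. The cause of these shifts was not tested. No pairing by replicate number is stated in the sources used here. Deviations from the group means correlated at -0.0463 to 0.0723 between same-numbered libraries and at -0.0886 to 0.115 between differently numbered ones. With 3 libraries per group these values cannot decide whether same-numbered samples were handled together. With the replicate block, 443 genes were higher and 96 lower in *gro-RNAi* against control, 2529 and 425 in *Notch-RNAi* against control, and 201 and 335 between the RNAi groups. *dgo*, *stan*, *Notum* and *Wnt6* gave no value under the filter at 1 FPKM. Depth limits *Wnt2*, *Wnt4*, *Wnt6*, *Wnt10*, *Notum*, *stan*, *Cby*, *dgo* and *Drl-2*, which rest on few reads in at least 1 group.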
